A study of Mus musculus with 11 samples.

Results

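Atf4 and 3 genes of the amino acid response, Asns, Slc7a3 and Mthfd2, were followed in the neocortex of null mutant mouse embryos. The members were the probes that the platform's annotation assigns to these 4 symbols, 1 probe for each gene, out of 6041 genes on the array. They were chosen with their ratios between null and wild type in view, so those ratios are given as a description, with no test. RNA came from mice of the C57BL/6 background at embryonic day 18, and the record describes the null mutants as synaptically silent. Each of 11 arrays set 1 null replicate against wild-type RNA, read here as 1 common pool, with the null RNA in Cy3 on arrays 1, 2, 6, 7, 8 and 10 and in Cy5 on arrays 3, 4, 5, 9 and 11. The null allele was present in the whole animal, so the cell type in which it acts on a transcript cannot be told from these arrays. On arrays 1 and 6, one field dates the wild-type RNA to day 14 and another to day 18.

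ATF4 is a transcription factor of the integrated stress response. When a kinase such as GCN2, which senses uncharged tRNA, or PERK, which senses unfolded protein in the endoplasmic reticulum, phosphorylates the initiation factor eIF2, general translation falls while translation of Atf4 mRNA rises. ATF4 then binds, with partners of the C/EBP family, to composite elements in genes of amino acid synthesis, amino acid uptake, tRNA charging and one-carbon metabolism. Much of its control is thus translational, and an array reports its mRNA alone. Asns makes asparagine from aspartate and glutamine, Slc7a3 is the cationic amino acid transporter CAT-3, which carries arginine and lysine and is found in neurons, and Mthfd2 is a mitochondrial enzyme of folate metabolism that supplies formate for purine synthesis.

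The upstream regions are shown because the 4 genes are grouped by a shared regulator. RefSeq's promoter table (GRCm38.p6) matched 3 of the 4 genes. The 250 bases before the annotated start are printed 5′ to 3′ on the gene's strand, in lower case, with capitals for 2 motifs searched on both strands: TGATGNAAN, the C/EBP-ATF response element, and CCAAT, the box bound by NF-Y.
Asns, chr6:7693210-7693459, minus strand: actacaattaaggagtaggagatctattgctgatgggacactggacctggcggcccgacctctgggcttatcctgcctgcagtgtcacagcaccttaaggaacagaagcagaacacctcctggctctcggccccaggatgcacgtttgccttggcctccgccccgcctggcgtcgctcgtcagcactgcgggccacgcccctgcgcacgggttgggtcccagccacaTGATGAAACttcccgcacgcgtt
Atf4, chr15:80254934-80255183, plus strand: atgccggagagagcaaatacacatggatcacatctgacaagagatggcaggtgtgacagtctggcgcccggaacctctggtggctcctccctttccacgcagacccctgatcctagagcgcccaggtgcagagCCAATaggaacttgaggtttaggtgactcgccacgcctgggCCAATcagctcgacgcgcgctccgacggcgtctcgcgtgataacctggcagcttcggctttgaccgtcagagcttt
Mthfd2, chr6:83317605-83317854, minus strand: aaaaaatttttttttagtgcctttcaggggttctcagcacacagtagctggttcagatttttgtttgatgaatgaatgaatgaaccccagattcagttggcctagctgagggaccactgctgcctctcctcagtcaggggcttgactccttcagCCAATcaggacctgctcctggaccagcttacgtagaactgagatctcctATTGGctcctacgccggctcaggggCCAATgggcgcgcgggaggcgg
The Asns window held TGATGAAAC, a match to the response element, at positions -23 to -15 from the annotated start. No match to it lay in the windows of Atf4 and Mthfd2. A CCAAT box occurred at -117 and -76 in Atf4, and at -96, -47 (on the opposite strand) and -22 in Mthfd2, and no match was present in the Asns window. Matches to the 2 motifs did not overlap. Over all 32851 promoter windows of the same length, 3.44% held the response element and 33.8% a CCAAT box. These matches describe letters, not bound sites, and no match says only that the letters are not in this window. The Mthfd2 start used here, at 83317604, lies inside the longest annotated span of the gene (chr6:83305704-83326011), so other starts have other windows.

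Values are log ratios of null over wild type as deposited, taken as log2. No source used here gives their direction, which is called likely from Xist, an RNA made in female cells only. Xist lay between -7.37 and -4.18 on 6 arrays, 4 with the null in Cy3 and 2 in Cy5, between 0.00 and 0.67 on 4 others, and had no value on 1. A male null sample against a pool that holds female RNA gives such low values when the null is the numerator. Rank correlations between arrays ran from -0.08 to 0.70, so no pair clearly opposed another. Those of arrays 3 and 4 with Cy3 arrays 1, 2, 6, 7 and 8 were at most 0.11. Such values near 0 show neither a shared nor an opposed direction. Array 10, a Cy3 array, was at 0.63 with array 3 and 0.35 with array 4. Arrays 9 and 10 resembled arrays of the other dye orientation at least as much as their own. The median rank correlation of array 9 was 0.27 with the other Cy5 arrays and 0.33 with the Cy3 arrays, and that of array 10 was 0.21 with the other Cy3 arrays and 0.35 with the Cy5 arrays. Calls that end or arise without these 2 arrays are named with the genes. The arrays carried 4822 to 6316 values each, and their number limits the precision. The labels number the null samples but do not say whether they came from separate litters.

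All 4 genes had lower ratios in the null, by modest amounts. Of their 44 values over 11 arrays, 43 lay below 0, in both dye orientations. The fitted log2 ratios were -0.46 ± 0.05 (SE, n = 11) for Asns, -0.34 ± 0.06 for Atf4, -0.28 ± 0.04 for Slc7a3 and -0.24 ± 0.04 for Mthfd2. Of all 4811 genes tested, 2.39% had a lower ratio than Asns, 4.36% than Atf4, 6.84% than Slc7a3 and 8.85% than Mthfd2. Of 3696 genes with values on all 11 arrays, 5.63% were below 0 on each. At a limma adjusted p of 0.05, 28.6% of all probes tested were called, 14.7% higher and 14.0% lower. Because the 4 genes were chosen on this contrast, nothing is read from their place in it. In linear terms the transcripts were lower by 27.2%, 20.8%, 17.4% and 15.2%, if the logs are base 2. In bulk tissue, fewer cells that express a gene and less RNA per cell cannot be told apart.

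Atf4 (probe 3304; gene at chr15:80255184-80257545, GRCm38.p6), the transcription factor of the group, was below 0 on 11 of 11 arrays. On the 6 Cy3 arrays its log2 ratio had a lowest value of -0.56, a median of -0.18 and a highest of -0.14. On the 5 Cy5 arrays it was -0.28 (array 3), -0.40 (array 4), -0.04 (array 5), -0.70 (array 9) and -0.53 (array 11). Arrays 1, 7, 9 and 11 were lowest, and the orientations overlapped. Its SD over the arrays, 0.21, was the largest of the 4 genes, and its place on an array varied with it. On array 9 only 2.07% of probes had a lower ratio, against 39.4% on array 5.

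Asns (probe 6454; chr6:7675165-7693209), the synthetase whose promoter held the response element, had the lowest mean of the group and was below 0 on 11 of 11 arrays. On the Cy3 arrays the lowest log2 ratio was -0.65, the median -0.51 and the highest -0.25. On the Cy5 arrays it was -0.41 (array 3), -0.31 (array 4), -0.43 (array 5), -0.60 (array 9) and -0.42 (array 11). The Cy5 values lay within the range of the Cy3 values, with a mean of -0.43 ± 0.10 (SD, n = 5) beside -0.48 ± 0.14 (n = 6). Fewer than 10% of an array's probes had a lower ratio than Asns on 9 of 11 arrays. The exceptions were array 4 (28.4%), whose ratios spread most widely, and array 10 (18.4%).

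Slc7a3 (probe 1519; chrX:101079146-101090452), the transporter, was below 0 on 11 of 11 arrays and close to uniform where the null carried Cy3. There the lowest log2 ratio was -0.40, the median -0.31 and the highest -0.28. On the Cy5 arrays it was -0.13 (array 3), -0.27 (array 4), -0.06 (array 5), -0.47 (array 9) and -0.26 (array 11). The SD was 0.04 over the Cy3 arrays and 0.16 over the Cy5 arrays, and arrays 3 and 5 were the nearest to 0. The gene lies on the X chromosome, and the part of sample sex in its ratio was not tested.

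Mthfd2 (probe 2467; chr6:83305704-83326011), the folate enzyme, was below 0 on 10 of 11 arrays, the exception being array 10 at 0.02. On the Cy3 arrays the lowest log2 ratio was -0.32, the median -0.21 and the highest 0.02. On the Cy5 arrays it was -0.20 (array 3), -0.23 (array 4), -0.21 (array 5), -0.46 (array 9) and -0.36 (array 11). Array 9 was again the lowest, and the other arrays apart from 10 and 11 lay between -0.32 and -0.17.

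**Figure D1:**
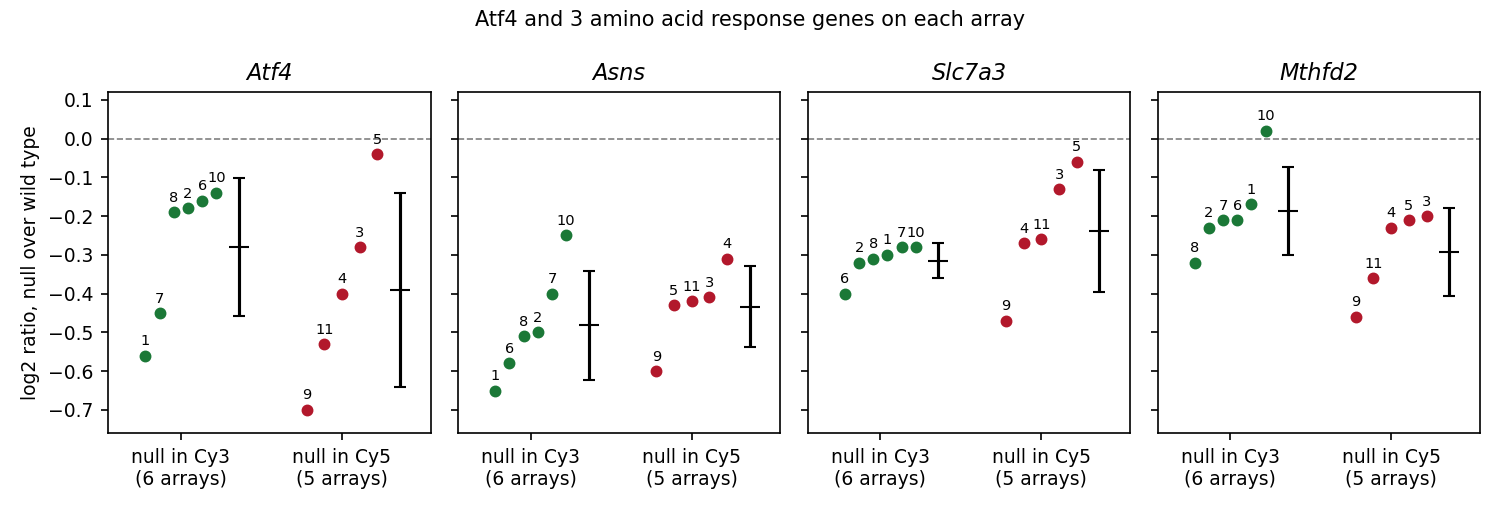
Log2 ratio of null over wild type (vertical axis) for each gene on each numbered array, split by the dye of the null RNA; black bars show the mean and SD of the 6 Cy3 and the 5 Cy5 arrays. All points but that of Mthfd2 on array 10 (0.02) lie below the dashed line at 0.

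Array 9 had the lowest mean over the 4 genes, -0.56, and array 10 the highest, -0.16, and these are the arrays that resemble the other dye orientation. Without both, the fitted log2 ratios were -0.46 for Asns, -0.31 for Atf4, -0.25 for Slc7a3 and -0.24 for Mthfd2. The difference between the dye orientations is a measure on which the genes were not chosen. The Cy5 minus Cy3 difference was -0.11 ± 0.12 (SE) for Atf4, 0.05 ± 0.09 for Asns, 0.08 ± 0.09 for Slc7a3 and -0.11 ± 0.09 for Mthfd2, with limma adjusted p of 0.616, 0.76, 0.594 and 0.48 over all 5399 probes tested. The dye term was called for 4 probes of the array, 0.0741% of those tested. Without arrays 9 and 10 the 4 differences were -0.01, 0.14, 0.15 and -0.02, with adjusted p of 0.984, 0.312, 0.286 and 0.884. The standard errors of about 0.1 leave room for differences near the size of the ratios themselves, so equal ratios in both orientations are not shown.

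In the order of the ratios, Asns was lower than Mthfd2 on 11 of 11 arrays, than Slc7a3 on 10 and than Atf4 on 7. The paired difference between Asns and Mthfd2 was -0.23 ± 0.12 (SD, n = 11), and that between Asns and Atf4 was -0.13 ± 0.21. Among Atf4, Slc7a3 and Mthfd2 the arrays disagreed on the order, Atf4 being lower than Slc7a3 on 6 of 11 and than Mthfd2 on 7, and Slc7a3 lower than Mthfd2 on 7. The paired differences, each smaller than its SD over single arrays, were -0.05 ± 0.19 for Atf4 minus Slc7a3, -0.10 ± 0.18 for Atf4 minus Mthfd2 and -0.05 ± 0.13 for Slc7a3 minus Mthfd2. Probes can compress ratios to unequal degrees, so this order is one of measured ratios.

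Whether the genes varied together over arrays was asked for the 6 pairs, with two-sided permutation tests and p adjusted over the pairs. All 6 correlations were positive and none passed. Pearson's r was highest for Atf4 and Mthfd2, at 0.55 (permutation p = 0.081, adjusted p = 0.23, n = 11), with a Spearman rank coefficient of 0.31 (permutation p = 0.35, adjusted p = 0.46). Spearman's coefficient was highest for Asns and Slc7a3, at 0.62 (permutation p = 0.048, adjusted p = 0.29), where r was 0.48 (permutation p = 0.14, adjusted p = 0.23). For Asns and Mthfd2, r was 0.48 and Spearman's coefficient 0.31 (permutation p = 0.13 and 0.36, adjusted p = 0.23 and 0.46). For Atf4 and Slc7a3 they were 0.46 and 0.25 (permutation p = 0.15 and 0.47, adjusted p = 0.23 and 0.47). The pair of Slc7a3 and Mthfd2 had 0.35 and 0.29 (permutation p = 0.28 and 0.38, adjusted p = 0.31 and 0.46). For the regulator and Asns, r was 0.33 and Spearman's coefficient 0.31 (permutation p = 0.31 and 0.36, adjusted p = 0.31 and 0.46).

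Leaving out the 2 arrays farthest from the median of the first gene, arrays 9 and 1 for the pairs with Atf4 or Asns first and arrays 5 and 9 for Slc7a3, (array 10 lay almost as far as array 9 for Asns) gave r of -0.23 for Atf4 and Asns, 0.15 for Atf4 and Slc7a3, 0.44 for Atf4 and Mthfd2, 0.33 for Asns and Slc7a3, 0.55 for Asns and Mthfd2 and 0.01 for Slc7a3 and Mthfd2. Within the 6 Cy3 arrays the 6 values were 0.39, -0.37, 0.07, 0.54, 0.62 and 0.31 in the same order. The 5 Cy5 arrays are under the minimum of 6 set for a correlation, so their r is not given. It was higher than the Cy3 value for every pair, so the Cy3 values do not speak for both orientations. Single arrays moved r widely. Without array 9, r fell to 0.01 for Slc7a3 and Mthfd2, 0.16 for Atf4 and Asns, 0.21 for Atf4 and Slc7a3 and 0.29 for Atf4 and Mthfd2. Without array 10, r was 0.15 for Asns and Mthfd2, and without array 1 it was 0.68. Without both arrays 9 and 10, r was -0.25 for Asns and Mthfd2, -0.01 for Atf4 and Asns, 0.09 for Atf4 and Mthfd2, 0.13 for Slc7a3 and Mthfd2, 0.24 for Atf4 and Slc7a3 and 0.48 for Asns and Slc7a3.

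**Figure D2:**
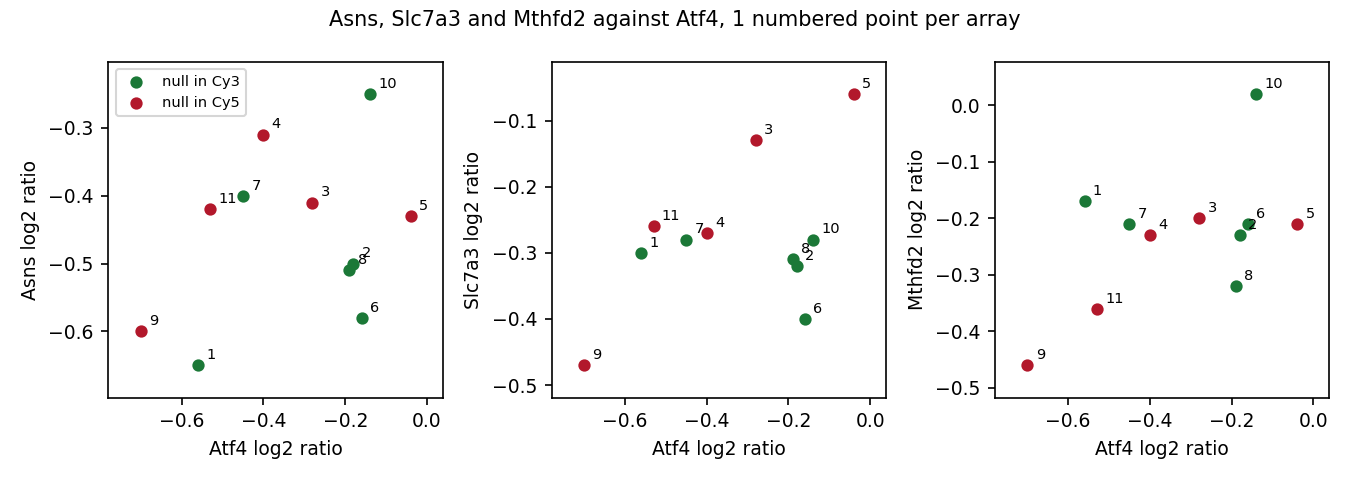
Log2 ratios of Asns, Slc7a3 and Mthfd2 (vertical axes) against that of Atf4 (horizontal axis), 1 point per array, numbered and coloured by the dye of the null RNA. Array 9 lies at the low end of every panel, and arrays 2, 6 and 8 have Atf4 ratios near the top of its range with Asns ratios of -0.50, -0.58 and -0.51.

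By likeness over arrays, other genes stood ahead of the group's own members. Among 4296 genes measured on at least 10 arrays with it, Atf4 was most like Faim, an inhibitor of apoptosis (Pearson's r = 0.89), the cyclophilin Ppib (0.88) and the chaperone Hsp90b1 (0.88). Asns was most like the centrin Cetn3 (0.91), Tspan6 (0.90) and Vapa (0.89), which tethers the endoplasmic reticulum to other membranes. Slc7a3 came closest to the helicase Wrn (0.92, n = 10), the kinase Map3k8 (0.91) and the growth factor Ptn (0.85), and Mthfd2 to Rpgr (0.91), Zfp930 (0.90) and Dazap2 (0.90). For Atf4, Mthfd2 ranked 654th, Slc7a3 891st and Asns 1305th of these genes. The points of such correlations are 11 arrays that share a wild-type pool, and the genes were picked as the highest of all 4296.

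The rest of the response was read from 8 lists of related genes, with the 4 members left out of the counts. Of 92 other genes tested, 16 fell and 8 rose at a limma adjusted p of 0.05, which is 17.4% and 8.7%. Over all 4811 genes tested, 28.9% were called, 14.4% lower and 14.5% higher. At an unadjusted p under 0.05 in limma, 985 of the 4811 were lower and 972 higher. The counts of each list below are to be read beside these. The median log2 ratio was -0.04 in the lists and -0.01 over all genes. Neither share of the 92 genes, nor the count of any single list below, was tested against the rest of the array. A further 18 listed genes on the array had too few values for the test.

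The kinases and partners of eIF2, the entry to the response, showed no call. None of 7 genes passed in limma, beside 28.9% of all genes tested, and 1 was higher at an unadjusted p under 0.05 (median -0.013). Eif2ak4, which encodes GCN2, had a log2 ratio of 0.13 ± 0.05 (adjusted p = 0.092) and Eif2s3x, a subunit of eIF2, one of -0.06 ± 0.07 (adjusted p = 0.56). Eif2ak3, which encodes PERK and is outside the rule for named genes, had 0.03 ± 0.05 (adjusted p = 0.64). Without arrays 3, 4 and 10, which an added alternative left out, Eif2ak4 (0.18, adjusted p = 0.036) and Eif2s3x (-0.17, adjusted p = 0.044) passed. The fit held no term for the sex of the samples, and the part of sex in the Eif2s3x ratio was not tested.

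Transcription factors and feedback genes of the pathway rose or did not pass, apart from Atf4 itself. Of 10 others 3 rose and 0 fell, with 0 lower at an unadjusted p under 0.05 (median 0.077). Nfe2l2, the oxidative stress factor NRF2, which can pair with ATF4, rose by 0.40 ± 0.05 (adjusted p = 0.00011) and was above 0 on 11 of 11 arrays, from 0.03 to 0.77. The C/EBP factor Cebpa rose by 0.26 ± 0.09 (n = 8, adjusted p = 0.045). Ddit3, which encodes the stress factor CHOP and is a target of ATF4, rose by 0.16 ± 0.05 (adjusted p = 0.032) and was above 0 on 9 of 11 arrays. The call of Cebpa was lost without array 6 or 11, of 3 arrays that could be left out, and without arrays 9 and 10 (adjusted p = 0.058), and that of Ddit3 without array 2, 3, 4, 7 or 8. Ddit3 was at 0.03 on the Cy3 arrays alone (adjusted p = 0.68) and 0.28 on the Cy5 arrays alone (adjusted p = 0.098). Cebpd (0.16 ± 0.09, adjusted p = 0.19) and Gadd45a (0.09 ± 0.07, adjusted p = 0.36) did not pass.

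Amino acid transporters were the list with the highest count of lower genes. Of 11 besides Slc7a3, 5 fell and 1 rose (median -0.20), beside 14.4% lower and 14.5% higher over all genes tested. On the Cy3 arrays alone 5 genes of the list were called, and on the Cy5 arrays alone 1. The fall was steepest for Slc1a6, the neuronal glutamate transporter EAAT4, by 0.63 ± 0.07 (n = 9, adjusted p = 6.3e-05), on 9 of 9 arrays. Slc7a10, a carrier of small neutral amino acids and D-serine, fell by 0.29 ± 0.06 (n = 8), the astrocyte glutamate transporter Slc1a3 by 0.27 ± 0.06, the glycine transporter Slc6a9 by 0.23 ± 0.07 (n = 9) and the alanine and serine carrier Slc1a4 by 0.20 ± 0.05, with adjusted p from 0.0025 to 0.034. Both probes of Slc1a3 were lower, at -0.31 and -0.23. The call of Slc6a9 was lost without array 2, 6 or 7. Slc1a4 was at -0.11 on the Cy3 arrays alone (adjusted p = 0.13) and -0.30 on the Cy5 arrays alone (adjusted p = 0.074). Without array 3 only 2 of the 6 calls were made, and without array 5 only 3, because the other genes then had too few values to be tested.

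The cationic carriers did not share a direction. Slc7a2, which encodes CAT-2 and carries the same amino acids as Slc7a3, rose by 0.40 ± 0.06 (n = 10, adjusted p = 0.00071) and was above 0 on 10 of 10 arrays, from 0.06 to 0.81. Its 2 probes gave 0.39 and 0.35. Slc38a3 had a ratio of -0.26 ± 0.10 (adjusted p = 0.079) and Slc6a6, the taurine transporter, one of -0.15 ± 0.13 (adjusted p = 0.39). Without arrays 9 and 10 Slc38a3 passed at -0.22 (adjusted p = 0.035). Slc38a3 was at -0.01 on the Cy3 arrays alone (adjusted p = 0.95) and -0.50 on the Cy5 arrays alone (adjusted p = 0.04).

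Enzymes of amino acid synthesis and interconversion went both ways beside Asns. Of 17 others, 4 fell and 2 rose (median -0.061). Got1 and Got2, the cytosolic and mitochondrial aspartate aminotransferases, fell by 0.52 ± 0.04 (n = 10, adjusted p = 3.5e-06) and 0.30 ± 0.05 (adjusted p = 0.00063), and each was below 0 on every array that measured it. They make and use aspartate, a substrate of Asns. The lysine-degrading enzyme Aass fell by 0.51 ± 0.09 (adjusted p = 0.00096) and the branched-chain aminotransferase Bcat2 by 0.16 ± 0.05 (adjusted p = 0.024).

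Glul, the glutamine synthetase of astrocytes, rose by 0.19 ± 0.06 (adjusted p = 0.027) and Aldh18a1, of proline synthesis, by 0.12 ± 0.04 (adjusted p = 0.034). Phgdh, the first enzyme of serine synthesis, had a ratio of -0.20 ± 0.08 (adjusted p = 0.06) and Glud1 one of -0.12 ± 0.05 (adjusted p = 0.078). Both passed without arrays 9 and 10, at -0.24 (adjusted p = 0.013) and -0.16 (adjusted p = 0.038). Leaving out array 2, 3 or 6 ended the call of Bcat2, array 3, 5, 6 or 8 that of Glul, and array 3, 5, 6, 7, 8 or 10 that of Aldh18a1. Without array 6 the list held 3 calls.

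Of 8 other genes of one-carbon metabolism 1 fell and 0 rose, with 1 lower and 1 higher at an unadjusted p under 0.05 (median -0.026). The folate receptor Folr1 fell by 0.15 ± 0.05 (adjusted p = 0.046), a call lost without any 1 of 9 arrays, all but 5 and 8, and without arrays 9 and 10 together (adjusted p = 0.1). Tyms, which makes thymidylate, had a ratio of 0.20 ± 0.07 (adjusted p = 0.054) and Ahcy 0.13 ± 0.06 (adjusted p = 0.13). Tyms passed in 9 of 26 alternatives, and at 0.24 (adjusted p = 0.02) without arrays 9 and 10.

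Aminoacyl-tRNA synthetases, which charge tRNA and include many ATF4 targets, gave no call. None of 10 genes passed in limma, beside 28.9% of all genes tested, and 1 was lower at an unadjusted p under 0.05 (median -0.071). Gars had a ratio of -0.15 ± 0.06 (adjusted p = 0.064) and Vars one of -0.11 ± 0.08 (adjusted p = 0.31). Without array 4, or without array 10, Gars passed, and 3 genes of the list passed without arrays 3, 4 and 10.

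The unfolded protein response of the endoplasmic reticulum is the other stress pathway joined to ATF4 through PERK. Of its 16 genes tested 3 fell and 0 rose, with 6 lower and 1 higher at an unadjusted p under 0.05 (median -0.035). Among all genes tested, 14.4% were called lower and 14.5% higher. Atf6b, a paralog of the sensor ATF6, fell by 0.30 ± 0.07 (n = 10, adjusted p = 0.0076), and the chaperones Calr and Canx by 0.24 ± 0.06 (adjusted p = 0.007) and 0.17 ± 0.05 (adjusted p = 0.023). Atf6b was at -0.06 on the Cy3 arrays alone (adjusted p = 0.62) and -0.54 on the Cy5 arrays alone (adjusted p = 0.038), and did not pass without the dye term (adjusted p = 0.065). Calr was at -0.12 (adjusted p = 0.24) and -0.36 (adjusted p = 0.052) in the same order. Leaving out array 3 ended the call of Canx, while without array 5 or array 10 the list held 5 calls. Canx did not pass without arrays 1 and 6 (adjusted p = 0.055) or arrays 3, 4 and 10 (-0.08, adjusted p = 0.16). Pdia4 (-0.24 ± 0.10, adjusted p = 0.097) and Xbp1, the effector of the IRE1 branch (-0.16 ± 0.06, adjusted p = 0.07), did not pass.

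Amino acid sensing by the Rag GTPases and mTORC1, which also raises ATF4, held the listed genes with the largest falls, Rragc and Rps6kb2. Of its 14 genes 3 fell and 2 rose (median -0.037), beside 14.4% lower and 14.5% higher over all genes tested. Rragc, a Rag GTPase that brings mTORC1 to the lysosome, fell by 0.97 ± 0.06 (adjusted p = 9.6e-08), with values from -1.25 to -0.60 on 11 arrays. Rps6kb2, the S6 kinase 2 downstream of mTORC1, fell by 0.75 ± 0.08 (adjusted p = 1.6e-05), with values from -1.08 to -0.22. The kinase gene Mtor itself rose by 0.24 ± 0.05 (adjusted p = 0.0034) and was above 0 on 11 of 11 arrays.

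Eif4ebp2, an inhibitor of cap-dependent translation, rose by 0.23 ± 0.08 (adjusted p = 0.04), and the cap-binding factor Eif4e fell by 0.11 ± 0.04 (adjusted p = 0.05). Leaving out any 1 of 10 arrays, all but array 5, ended the call of Eif4e (without arrays 9 and 10, adjusted p = 0.073), and any 1 of 9, all but arrays 4 and 10, that of Eif4ebp2. Eif4ebp2 was at 0.43 on the Cy3 arrays alone (adjusted p = 0.011) and 0.03 on the Cy5 arrays alone (adjusted p = 0.88). Rps6 (-0.20 ± 0.08, adjusted p = 0.09) and Mlst8 (0.19 ± 0.12, adjusted p = 0.25) did not pass.

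**Figure D3:**
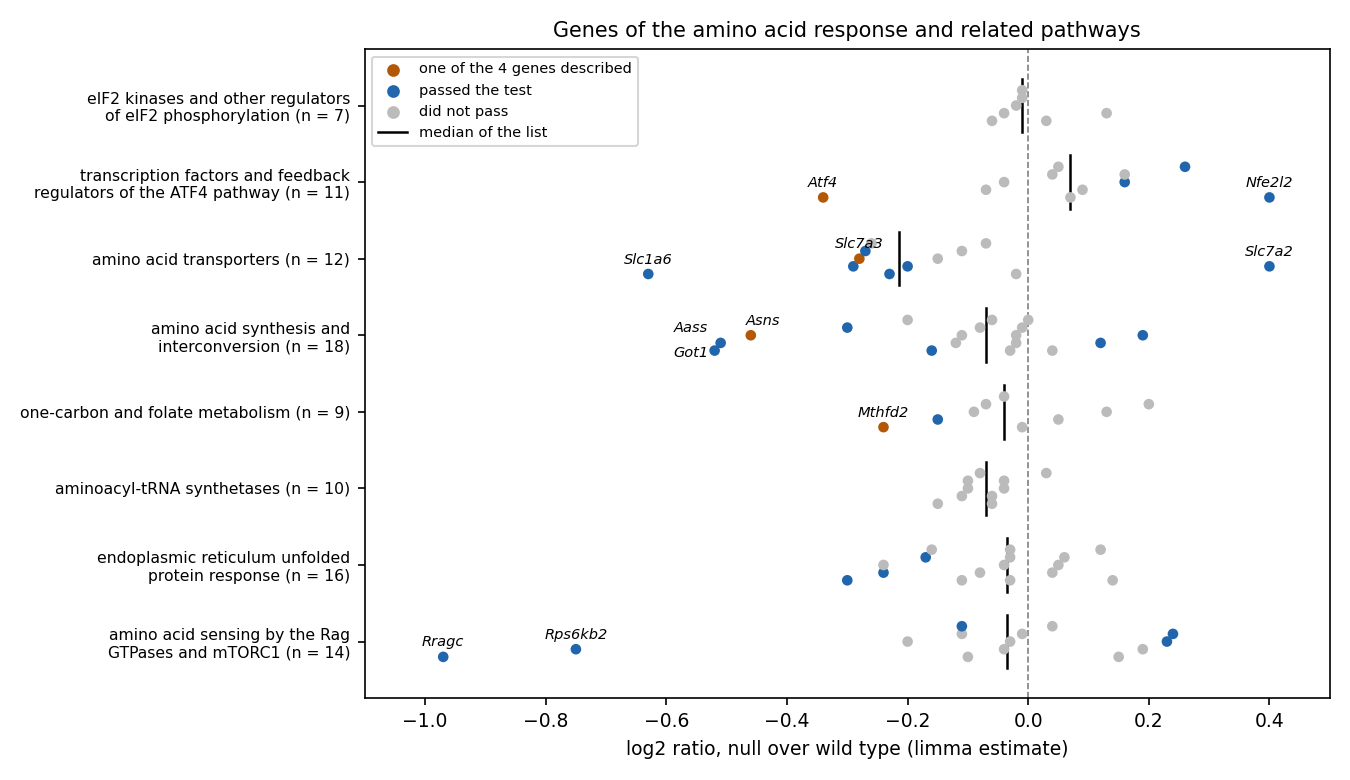
Fitted log2 ratio of null over wild type (horizontal axis) of each gene tested in the 8 lists (rows, with the number tested), coloured by whether it is one of the 4 genes described, passed the test or did not; vertical bars are list medians, the 4 genes included. Rragc (-0.97) and Rps6kb2 (-0.75) are lowest, Nfe2l2 and Slc7a2 (both 0.40) highest, and the eIF2 and tRNA synthetase rows hold no gene that passed.

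**Figure D4:**
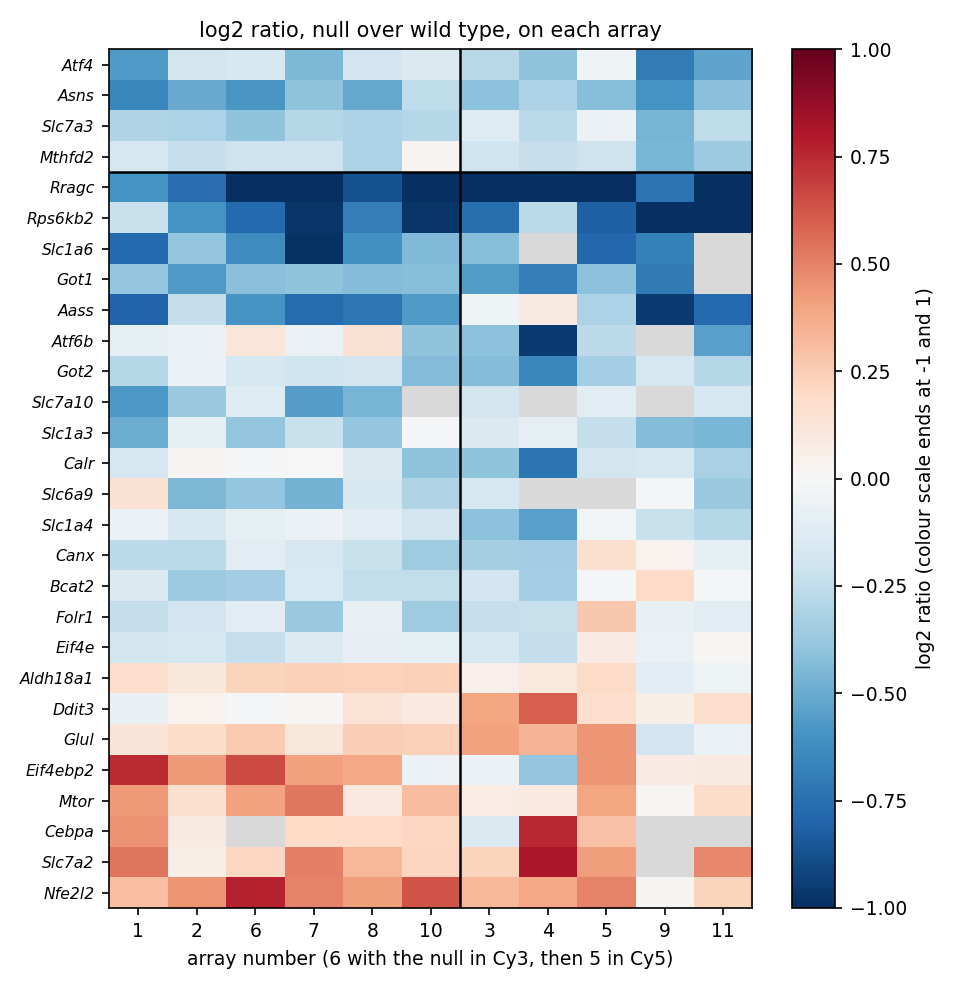
Log2 ratio of null over wild type on each array (columns, the 6 with the null in Cy3 first) for the 4 genes above the line and the 24 listed genes that passed below it; blue is lower, red higher and grey no value, and colours end at -1 and 1. The rows of Asns, Rragc, Rps6kb2 and Got1 are below 0 on every array with a value, and Nfe2l2, Mtor and Slc7a2 are above 0 on every array with a value.

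Some targets of ATF4 had values on too few arrays to test, and are named after their values were seen. Atf3, a stress factor induced by ATF4, was above 0 on 5 of 5 arrays, from 0.25 to 1.65. The cationic transporter Slc7a1, a well known ATF4 target, was above 0 on 4 of 4, from 0.01 to 0.80. Ppp1r15a, the phosphatase subunit that ends the response, lay between -0.25 and 0.09, below 0 on 3 of 6. Cebpb lay between -0.43 and 0.37, below 0 on 5 of 6. Mthfd1l, the partner of Mthfd2 in the folate pathway, lay between -0.30 and 0.15, below 0 on 4 of 5. Among other listed transporters with too few values, Slc7a7 was below 0 on 3 of 3, from -0.84 to -0.05. Slc3a1 was below 0 on 1 of 6 (-0.01 to 0.38), Slc7a9 on 1 of 4 (-0.24 to 0.18) and Slc1a2 on 1 of 3 (-0.32 to 0.81). Shmt1, of the one-carbon list, was below 0 on 1 of 6, from -0.16 to 0.61. How often genes with so few values share 1 sign was not counted. The cystine transporter Slc7a11 had values on 2 arrays only, -0.54 and 0.42.

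The response element was also searched in the promoters of the listed genes. Among those in the RefSeq table it was found for 1 of 14 that fell, namely Got1, for 0 of 7 that rose and for 6 of 53 that did not pass. Of all genes in that table, 3.89% held it.

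Markers of other cell types were called in the same comparison. Of all 4811 genes tested, 14.5% were called higher and 14.4% lower, and no marker list was tested against these shares. Of 12 markers of microglia and macrophages 8 rose and 3 fell, with medians of single arrays from 0.20 to 0.57, and of 11 astrocyte markers 6 rose and 1 fell (0.00 to 0.44). Of 11 general neuronal markers 5 fell and 1 rose (-0.43 to 0.03), while 5 of 11 genes of neocortical projection neurons rose and 0 fell (-0.21 to 0.32). Meningeal and choroid plexus markers rose in 4 of 8 and fell in 1, vascular markers rose in 3 of 13 and fell in 1, 1 of 5 erythroid markers fell, and of 8 genes of cell death and the p53 response 3 rose and 1 fell. Ratios hold no levels, so whether a marker is absent cannot be read from them. The part of these cell types in the ratios of Atf4, Asns, Slc7a3 and Mthfd2 was not tested.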

How the data were processed

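RNA of null and wild-type neocortex was compared on 11 two-colour arrays. The deposited log2 ratios, 1 per probe and array, were used as given by the authors. Base 2 is assumed, since no source used here states the base, the direction, the background correction or the normalization. Array means lay between -0.00405 and 0.00298, so a shift of all transcripts would not show. Of 6856 probes, 6269 had 1 symbol, 6 several and 581 none in the platform annotation, and 6250 symbols were updated by Entrez identifier to RefSeq (GRCm38.p6). The check of the mutated gene is not reported here.

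The test took probes measured on 8 arrays or more, 3 or more of each dye orientation (5399 probes; 4811 genes after averaging a gene's probes), with limma 3.58.1 in R 4.3.3, a mean ratio and a dye term, two-sided, with Benjamini-Hochberg adjustment over all features at 0.05. Testing against 0 leaves out the spread among wild-type animals. p-values measure the spread between these samples. Correlations used 100000 permutations.

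Members and lists were chosen with earlier results of these data known. Named genes were every member, all list genes past the threshold (or the 4 highest and 4 lowest where over 8), up to 2 others of largest absolute ratio, and the 3 genes most like each member. Alternatives concerned the dye term, dye orientation, arrays left out, centring, scaling, weights, variances, probes tested and threshold. Alternatives without arrays 9 and 10, with their dyes exchanged, and without arrays 3, 4 and 10 were chosen after seeing the data. The fit was tested on simulated data.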

Additional observations from a re-analysis of the deposited data

Results flagged for a closer look

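Among 84 sets of Cy3 or Cy5 arrays of the genes named, 6 held a value far from the others, where chance gives about 1 in 20. Slc7a3 was -0.40 on array 6, while the other Cy3 arrays lay between -0.32 and -0.28. Got1 was -0.57 on array 2, against -0.44 to -0.39 on the others. Gadd45a was -0.17 on array 8, against 0.06 to 0.09 on 3 others. Array 10 held the remaining 3, each the lowest Cy3 value of its gene: Slc38a3 at -0.89 (others -0.01 to 0.37), Slc6a6 at -0.46 (others 0.11 to 0.28) and Tyms at -0.21 (others 0.25 to 0.52).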

How the results depend on the processing

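With the signs of the Cy5 arrays reversed, as if deposited ratios followed the dyes, the ratios of Atf4, Asns, Slc7a3 and Mthfd2 became 0.06, -0.03, -0.04 and 0.05, 4 probes and 0 genes were called, 0 of them listed, and the ratios of Atf6b (0.24), Calr (0.12), Cebpa (-0.04), Ddit3 (-0.12), Got1 (0.07), Got2 (0.08), Rps6kb2 (0.04), Rragc (0.03), Slc1a3 (0.00), Slc1a4 (0.09) and Slc7a2 (-0.09) changed sign. Under the 22 other alternatives the ratios ran from -0.39 to -0.28 for Atf4, -0.51 to -0.42 for Asns, -0.32 to -0.24 for Slc7a3 and -0.29 to -0.18 for Mthfd2. In the reported analysis limma called 1545 probes, 1390 genes and 24 listed genes. On the Cy5 arrays alone it called 468, 413 and 6, at an adjusted p of 0.01 it called 811, 727 and 14, and without arrays 1 and 6 it called 14 listed genes. Without arrays 1 and 6, the 9 calls of Aldh18a1, Bcat2, Canx, Cebpa, Ddit3, Eif4e, Eif4ebp2, Folr1 and Glul were lost. Without the dye term limma called 18 listed genes, and Aldh18a1, Atf6b, Ddit3, Eif4e, Eif4ebp2 and Folr1 did not pass. Without arrays 3, 4 and 10 it called 30, but Aldh18a1, Bcat2, Canx, Ddit3, Eif4e, Folr1, Glul and Slc6a9 did not pass. On the Cy5 arrays alone Aass (adjusted p = 0.13), Mtor (0.25), Nfe2l2 (0.07) and Slc1a3 (0.079) were among those that did not pass. With 1 array left out, 15 to 26 listed genes were called, the fewest (15) without array 3 or array 6. Of the 24 listed genes called, 14 passed in every such fit that tested them. Without arrays 3, 4 and 10, Slc6a6 passed with the opposite sign (0.13). No correlation between the genes passed under any alternative (adjusted p from 0.071 to 0.97), and no dye difference did (lowest adjusted p 0.17). The cause of these changes was not tested, beyond the fewer arrays of some. Each ratio already sets a null sample against wild-type RNA on the same array. Null samples could not be paired between the dye orientations, because these share no replicate number. Signal over background is unknown here, so dim probes could not be set apart.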
